A study of Mus musculus with 3 samples.

Results

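Il10, Areg and Tgfb1 encode 3 secreted proteins that can restrain immune cells, and Il10ra, Tgfbr1 and Tgfbr2 encode receptor chains for IL-10 and TGF-beta. These 6 genes, of 32285 in the count tables, were chosen by name with earlier results of these data known, so their levels and the ratios between days below are descriptions, with no test. They were measured in CD45+ immune cells from subcutaneous tumours that C57BL/6 mice grew from B16F10, a melanoma line of the same strain. All mice had received Pmel-1 cytotoxic T lymphocytes by vein 9 days after inoculation, CD8 T cells activated in culture that carry a transgenic receptor for gp100, a pigment cell protein. The groups are day 3, day 7 and day 14 counted from this transfer, each 1 library in which CD45+ cells of 3 mice were pooled in equal number. Untransferred mice were not analysed here and each day is 1 library, so the effect of the day cannot be separated from that of tumour age or of the library.

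IL-10 binds a receptor of IL10RA and IL10RB chains and signals through JAK1, TYK2 and STAT3. In macrophages this lowers the output of inflammatory cytokines, and regulatory T cells (Tregs), macrophages and some effector T cells can make it. Amphiregulin, the product of Areg, is an EGF family ligand that is cut from the cell surface by ADAM17, binds EGFR and is known as a tissue repair factor of Tregs. TGF-beta1 leaves the cell in a latent complex that must be activated, then binds TGFBR2, which brings in TGFBR1, and the pair signals through SMAD2 and SMAD3, so its RNA level does not give its activity.

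Cells were sorted in silico by a few marker genes, whose RNA molecules are counted as UMIs (unique molecular identifiers), among barcodes with at least 1500 UMIs, which were 2775 of 3656 at day 3, 2600 of 3038 at day 7 and 2902 of 3549 at day 14. The CD8 T gate (Cd8a or Cd8b1 with a Cd3 gene), which takes transferred and host cells alike, held 443, 517 and 458 cells at days 3, 7 and 14, the Treg gate (any Foxp3 UMI) 54, 49 and 100, and the CD4 T gate (Cd4 with a Cd3 gene) 62, 114 and 176. The NK gate (Ncr1 or Klrb1c without Cd3) held 208, 401 and 158 cells and the monocyte/macrophage gate (Csf1r or Adgre1 without Cd3e) 1395, 1001 and 1352, while 673, 589 and 754 barcodes fell in no gate. Median depth in the CD8 T gate was 16155, 13506 and 11028 UMIs per cell, and in the monocyte/macrophage gate 10518, 10769 and 12019. CD8 T markers summed to 10964, 16192 and 14166 CPM (a gene's counts scaled to 1000000 UMIs in the gate) in the CD8 T gate and to 74.7, 87.6 and 57.3 in the monocyte/macrophage gate. The CD4 T list, mostly genes that all T cells express, did not tell the T cell gates apart, at 4063, 9879 and 5995 CPM in the CD4 T gate and 8116, 12962 and 11948 in the CD8 T gate. The T cell gates were not free of other RNA: all 10 monocyte/macrophage markers were detected in the CD8 T gate, summing to 1317, 377 and 1099 CPM, and in the Treg gate, at 3179, 810 and 2187. The gates overlap, most of all Treg with CD4 T, which shared 28, 34 and 60 barcodes. Libraries also shared barcode sequences, 80, 87 and 39 of the CD8 T gate's, but only 6, 4 and 4 of these were the shallower copy, and those copies held 0 Il10 and 0 Areg UMIs.

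Levels are given in CPM with 95% exact Poisson intervals in parentheses. These intervals cover counting error only, not the spread between mice, and they are too narrow for a gene whose UMIs lie in few cells. Differences are judged against a rule of size, at least 1.5-fold with a ratio interval that excludes 1 and at least 20 UMIs over both days, which is not a call of change.

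**Figure D1:**
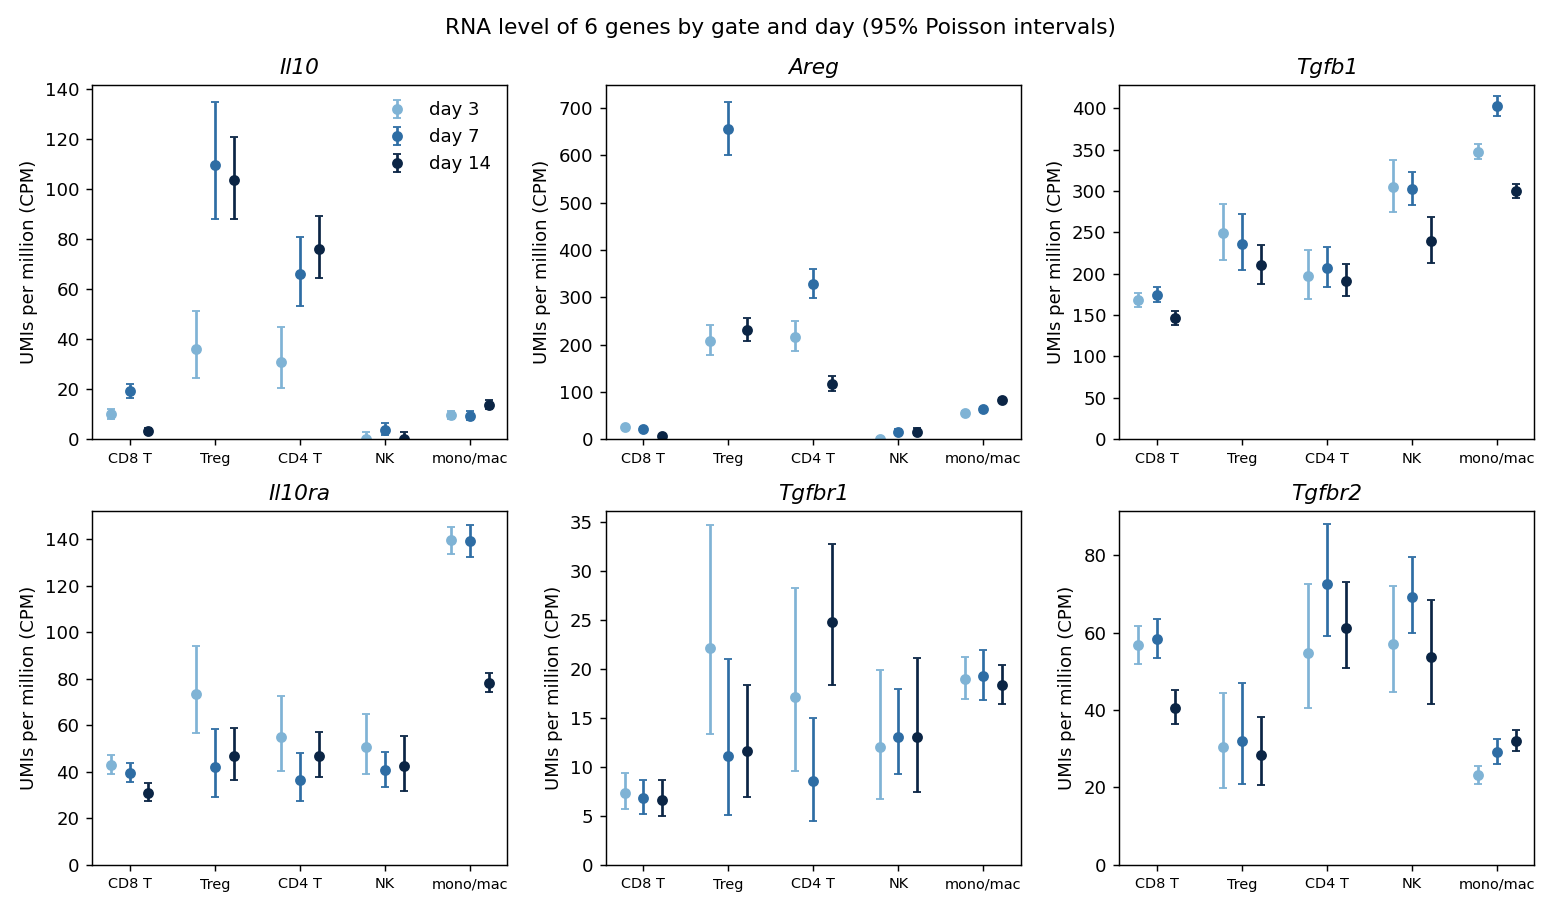
Level of each of the 6 genes (vertical axis, CPM, from 0) in 5 gates at days 3, 7 and 14; points are gate sums of 1 library and bars are 95% Poisson intervals for counting error. Il10 and Areg were highest in the Treg gate at days 7 and 14, while Tgfb1 and Il10ra were highest in the monocyte/macrophage gate at all 3 days.

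Il10 RNA in the CD8 T gate was at 9.86 CPM at day 3 (7.94 to 12.1), 19.2 CPM at day 7 (16.4 to 22.2) and 3.08 CPM at day 14 (2.00 to 4.55). Those levels came from 91, 175 and 25 UMIs, found in 19 of 443, 33 of 517 and 12 of 458 cells. The day 7 level was thus the highest, and the day 14 interval lay below those of days 3 and 7. Day 7 was 1.94-fold day 3 (1.5 to 2.53), day 14 was 6.22-fold lower than day 7, at a ratio of 0.16 (0.10 to 0.25), and day 14 was 3.20-fold lower than day 3.

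Few cells carried this RNA. A single cell held 45 of the 91 UMIs at day 3, the 2 richest cells held 49 and 46 of 175 at day 7, and 1 cell held 11 of 25 at day 14. Most other positive cells held 1 to 3 UMIs, as the plot of UMIs per cell shows. After every cell was thinned to 1500 UMIs, Il10 was left in 4, 9 and 3 CD8 T cells, or 0.90%, 1.74% and 0.66%, too few to order the days. NK cells served as a check on free RNA: 0 of 208 held Il10 at day 3, which allows a share of cells with an Il10 UMI of up to 1.44%, 2 of 401 (0.50%) at day 7 and 0 of 158 at day 14, which allows up to 1.90%, at median depths of 4920, 5984 and 5607 UMIs. The unthinned CD8 T shares, 4.29%, 6.38% and 2.62%, came from deeper cells.

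The day 3 level turned on which barcodes were counted. Without the barcodes found in more than 1 library the CD8 T gate held 26, 119 and 24 Il10 UMIs at days 3, 7 and 14, or 4.57, 20.8 and 3.71 CPM, since the richest day 3 cell was one of them. Without barcodes that carry markers of a second lineage, which left 283, 351 and 263 cells, it held 21, 119 and 23 UMIs, or 5.07, 24.7 and 8.40 CPM. Day 7 stayed highest in both, while in the second count day 14 lay above day 3. Leaving out CD8 T barcodes with a Foxp3 or Cd4 UMI gave 88, 161 and 20 UMIs, and a day 14 level 7.22-fold below that of day 7.

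**Figure D2:**
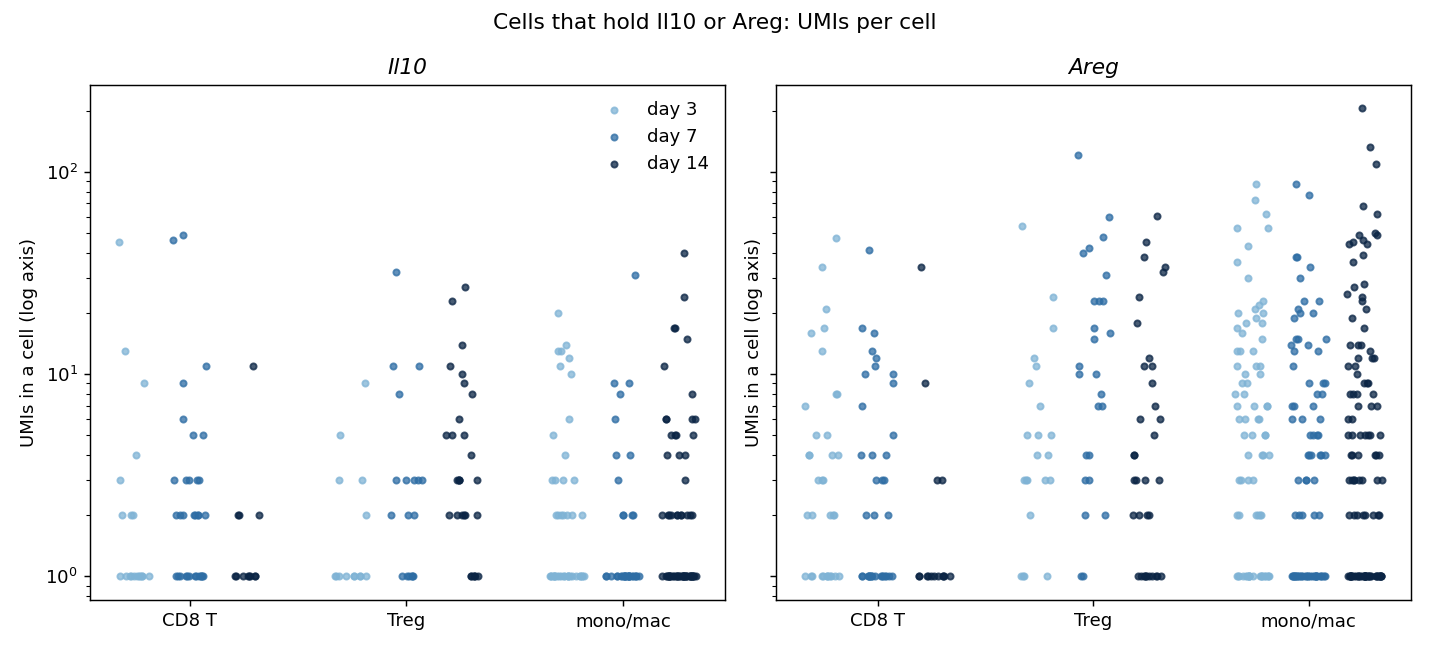
UMIs of Il10 (left) and Areg (right) in each cell that held at least 1 (log axis), in the CD8 T, Treg and monocyte/macrophage gates at days 3, 7 and 14; each point is a cell, spread sideways to keep points apart. In the CD8 T gate the richest Il10 cells of days 3, 7 and 14 held 45, 49 and 11 UMIs, and in the monocyte/macrophage gate Areg reached 207 UMIs in 1 cell at day 14.

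CD8 T cells with Il10 more often held RNA of some effector genes than those without, in shares of cells after thinning. Ccl3, a chemokine of activated T cells, was found in 52.6%, 42.4% and 58.3% of Il10-positive cells at days 3, 7 and 14, against 20.8%, 14.5% and 14.8% of Il10-negative ones. Maf, a transcription factor that promotes Il10 in T cells, was found in 26.3%, 24.2% and 41.7% of positive cells, against 2.59%, 4.55% and 4.93%. Gzmk, a granzyme, was in 31.6%, 36.4% and 41.7%, against 11.8%, 10.3% and 9.19%, and the cytotoxic granzyme gene Gzmb in 73.7%, 75.8% and 75%, against 59.2%, 38.0% and 26.7%. The others among the 8 with the largest mean difference were Pkm and Tpi1, enzymes of glycolysis, Psma4, a proteasome subunit, and Arl6ip1, and all 8 genes named here were more frequent in positive cells on each of the 3 days. The positive cells are 19, 33 and 12 in number and are not replicates. They were deeper than the others before thinning at day 3 (median 31068 UMIs, against 15251) and day 14 (16190, against 11021) but not at day 7 (12355, against 13536). They also held more monocyte/macrophage marker RNA, 1452 CPM against 1306 at day 3, 1240 against 315 at day 7 and 1840 against 1073 at day 14. Their CD8 T marker RNA was lower, at 8278 CPM against 11186, 10791 against 16583 and 10337 against 14303. The part of either in these shares was not tested.

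Trbv14, the beta chain segment that the Pmel-1 receptor is known to carry, was found in 3 of 19 Il10-positive CD8 T cells at day 3 (15.8%), 2 of 33 at day 7 (6.06%, interval 0.74 to 20.2) and 1 of 12 at day 14 (8.33%). Among Il10-negative CD8 T cells the shares were 17.9%, 31.6% (27.5 to 36.0) and 30.3%. Areg-positive CD8 T cells held it in 3 of 35, 7 of 37 and 1 of 15 cells (8.57%, 18.9% and 6.67%), against 18.6%, 30.8% and 30.5% of Areg-negative ones. The positive share was the lower one in all 6 pairs, but its interval lay apart from that of the negative cells only for Il10 at day 7. These shares are not thinned. Positive cells of either gene also held less CD8 T marker RNA than negative ones on each day, for Il10 at day 7 10791 CPM against 16583. Its part in these shares was not tested. Il10 and Areg met in the same CD8 T cell in 4, 2 and 1 cells.

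In the Treg gate Il10 stood at 36.2 CPM at day 3 (24.6 to 51.4), 109.6 CPM at day 7 (88.0 to 134.9) and 103.6 CPM at day 14 (88.1 to 120.9). It came from 31, 89 and 160 UMIs in 14 of 54, 18 of 49 and 29 of 100 cells. Days 7 and 14 overlapped each other and lay above day 3, at 3.03-fold (1.99 to 4.71) for day 7 and 2.86-fold (1.94 to 4.35) for day 14. Thinned to equal depth, the share of Treg cells with Il10 was 13%, 12.2% and 11%, from too few cells to order the days. Without second-lineage barcodes, 24, 26 and 45 Treg cells gave 111.7, 128.9 and 263.5 CPM from 16, 39 and 95 UMIs, so that day 14 was highest and day 7 close to day 3, and without barcodes found in more than 1 library the gate gave 47.6, 219.4 and 119.2 CPM. Day 3 had the lowest level in each of these counts. Monocyte/macrophage marker RNA in this gate was lowest at day 7, and its part in the Il10 level was not tested. The Treg gate exceeded the CD8 T gate, barcodes of both left out, by 4.90-fold at day 3 (3.13 to 7.48), 6.39-fold at day 7 (4.80 to 8.46) and 42.8-fold at day 14 (27 to 71.1).

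The CD4 T gate held Il10 at 30.8, 66.1 and 76.0 CPM, but nearly all of it in barcodes that also had Foxp3. With each barcode in 1 gate, the CD4 T gate kept 2, 4 and 2 Il10 UMIs. In the NK gate there were 0, 10 and 0 UMIs. The monocyte/macrophage gate, at 9.55 CPM at day 3 (8.11 to 11.2), 9.25 CPM at day 7 (7.57 to 11.2) and 13.8 CPM at day 14 (12.1 to 15.6), varied by less than 1.5-fold, with 44 of 1395, 36 of 1001 and 67 of 1352 cells positive. In order of level the Treg and CD4 T gates came first on each day. At day 3, 23 of the 27 CD4 T UMIs lay in barcodes with Foxp3, so the order of these gates is not read. The CD8 T gate came next at days 3 and 7, not distinguishable from the monocyte/macrophage gate at day 3, and at day 14 the monocyte/macrophage gate was 4.46-fold above it (2.95 to 7.03).

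Seen as shares of all Il10 UMIs, with each barcode in 1 gate, CD8 T cells held 29.6% at day 3, 41.4% at day 7 and 4.63% at day 14. Tregs held 10.2%, 22.9% and 35.2%, although they contributed only 2.52%, 2.69% and 4.11% of all UMIs. Monocytes and macrophages held 51.6%, 25.7% and 55.1%. These shares move with the number of cells of a type as well as with RNA per cell. The plot of UMI shares sets them beside those for Areg.

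**Figure D3:**
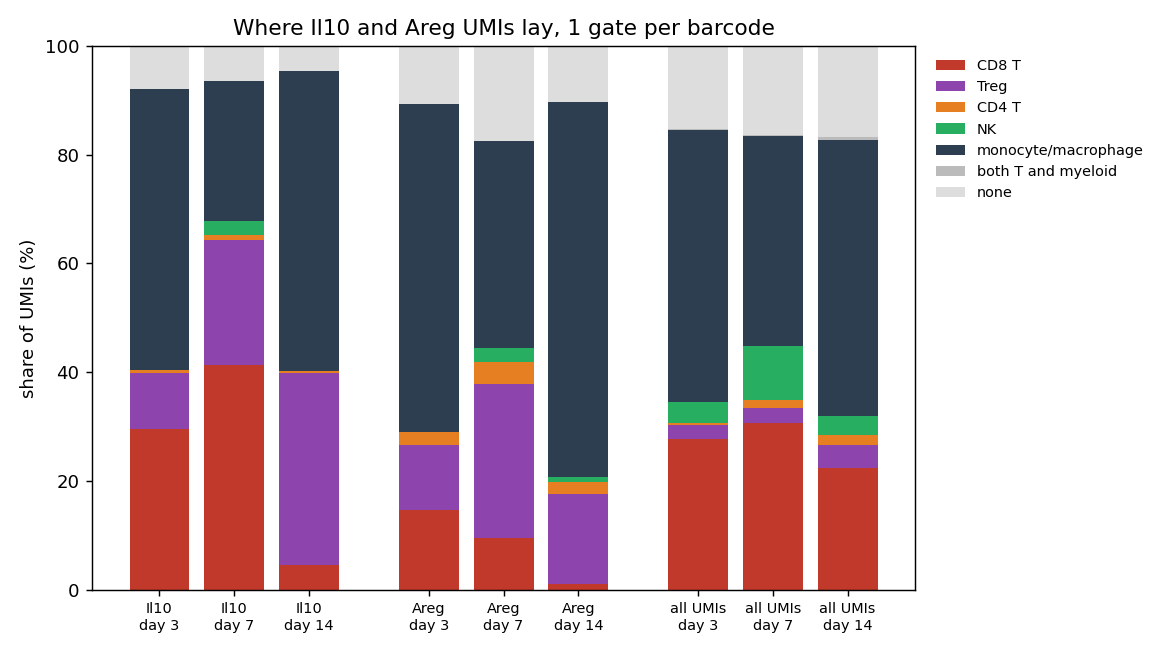
Share of Il10 UMIs, Areg UMIs and all UMIs (vertical axis, %) in each gate at days 3, 7 and 14, with every barcode in 1 gate. The CD8 T share of Il10 was 4.63% at day 14, against 41.4% at day 7, and the Treg share of Areg was 28.4% at day 7, from 2.69% of all UMIs.

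Areg, on mouse chromosome 5 (chr5:91139599-91148432, plus strand, mm10), and Tgfb1, on chromosome 7 (chr7:25687002-25705077, plus strand), differ in that, in the CD8 T and monocyte/macrophage gates, Areg was found in few cells, some with many UMIs, and Tgfb1 in most cells. The other members lie at chr1:131019845-131024974 (Il10, plus strand), chr9:45253837-45269149 (Il10ra, minus), chr4:47353222-47414931 (Tgfbr1, plus) and chr9:116084293-116175360 (Tgfbr2, minus), and all 6 are protein-coding genes. The 250 bases before the start of Areg (chr5:91139349-91139598) and of Tgfb1 (chr7:25686752-25687001) are printed because their motifs differ. A link between motifs and RNA levels was not tested. The windows come from RefSeq on GRCm38.p6, which gave them for 4 of the 6 members and not for Il10 or Il10ra. Capitals mark the motifs found on either strand.
Areg: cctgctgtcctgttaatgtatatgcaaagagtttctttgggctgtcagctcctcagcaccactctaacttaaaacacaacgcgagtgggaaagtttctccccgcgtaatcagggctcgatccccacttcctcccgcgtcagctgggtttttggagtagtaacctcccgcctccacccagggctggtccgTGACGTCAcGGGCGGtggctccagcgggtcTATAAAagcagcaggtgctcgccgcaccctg
Tgfb1: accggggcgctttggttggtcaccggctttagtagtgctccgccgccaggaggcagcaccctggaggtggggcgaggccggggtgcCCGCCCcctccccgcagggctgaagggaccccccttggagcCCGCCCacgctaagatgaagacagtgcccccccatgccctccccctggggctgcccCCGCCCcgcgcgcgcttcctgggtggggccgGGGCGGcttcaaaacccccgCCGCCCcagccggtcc
The Areg window holds a cyclic AMP response element (TGACGTCA) whose first base lies 61 bases before the start, a GC box (GGGCGG) at 52 and a TATA motif (TATAAA) at 31, which do not overlap. Tgfb1 has 5 GC boxes, at 164, 123, 67, 36 and 16 bases before the start, and neither of the other motifs, and the AP-1 motif (TGACTCA) is in neither window. Of 32851 promoter windows of this length, 1.55% hold the cyclic AMP element, 12.4% TATAAA, 32.7% a GC box and 4.46% the AP-1 motif, and 39 (0.12%) hold the cyclic AMP element and TATAAA together. A match of letters is a description and not evidence of binding.

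Areg was highest in the Treg gate at days 7 and 14. Its level there was 208 CPM at day 3 (179 to 241), 655 CPM at day 7 (601 to 713) and 232 CPM at day 14 (208 to 257), from 178, 532 and 358 UMIs in 22 of 54, 26 of 49 and 36 of 100 cells. Day 7 stood well above both other days, which overlapped each other: 3.15-fold day 3 (2.65 to 3.75), with day 14 2.83-fold lower than day 7. The richest cells held 54 of 178, 121 of 532 and 61 of 358 UMIs. The thinned share of Treg cells with Areg was also highest at day 7, at 22.2% (12 to 35.6), 36.7% (23.4 to 51.7) and 14.0% (7.87 to 22.4). Without second-lineage barcodes the gate gave 468, 1156 and 466 CPM, again with day 7 above the other days. The CD4 T gate had 216, 329 and 116 CPM from 189, 458 and 230 UMIs, of which its cells outside the Treg gate held only 37, 92 and 50. At day 3, 152 of the 189 CD4 T UMIs lay in barcodes with Foxp3, which the Treg gate counts too. The order of these gates on that day is therefore not read.

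The 8 genes with the largest mean difference in share between Areg-positive and Areg-negative Tregs were Tnfrsf9, Ikzf2, Dynlrb1, Rac1, Il2ra, Tpi1, Ctla4 and Cd164. All but Ctla4 were more frequent in positive cells on each day. At day 14 Ctla4 was in 63.9% of positive cells, against 67.2% of negative ones. Tnfrsf9, the costimulatory receptor 4-1BB, was in 81.8%, 76.9% and 72.2% of Areg-positive Tregs at days 3, 7 and 14, against 53.1%, 52.2% and 53.1% of negative ones, after thinning. Ikzf2, the transcription factor Helios, was in 86.4%, 96.2% and 63.9%, against 62.5%, 60.9% and 56.2%, and Il2ra, the high-affinity IL-2 receptor chain, in 50.0%, 42.3% and 41.7%, against 21.9%, 34.8% and 15.6%. These genes were looked at after their values were seen, in 22, 26 and 36 positive cells. Il10 and Areg shared 5, 11 and 9 Treg cells, and of Il10-positive Tregs 35.7%, 61.1% and 31.0% held Areg, against 42.5%, 48.4% and 38.0% of Il10-negative ones. These shares are not thinned, and their intervals overlapped on all 3 days. Median depth in Il10-positive Tregs was 7122 UMIs against 12277 at day 3, 15892 against 7283 at day 7 and 12887 against 10401 at day 14. Areg-positive Tregs held less monocyte/macrophage marker RNA than negative ones, 2885 CPM against 3391 at day 3, 487 against 1322 at day 7 and 952 against 3218 at day 14, and its part in these shares was not tested.

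In the CD8 T gate Areg was at 24.7 CPM at day 3 (21.6 to 28.1), 21.4 CPM at day 7 (18.5 to 24.6) and 7.40 CPM at day 14 (5.65 to 9.53), from 228, 195 and 60 UMIs in 35, 37 and 15 cells. Days 3 and 7 overlapped, and day 14 lay below both, 2.89-fold lower than day 7 and 3.34-fold lower than day 3. At day 14 a single cell held 34 of the 60 UMIs, and 35 of the 60 lay in 2 cells that also had Foxp3 and so belong to the Treg gate too. Without CD8 T barcodes that have Foxp3 or Cd4 UMIs there were 220, 162 and 25 UMIs, and day 14 was 5.81-fold lower than day 7. Without second-lineage barcodes the levels were 30.4, 35.4 and 6.57 CPM, and without barcodes found in more than 1 library 35.0, 17.8 and 8.80 CPM, so day 14 stayed lowest while the order of days 3 and 7 did not hold. Among the 8 genes with the largest mean difference in thinned share between Areg-positive and Areg-negative CD8 T cells were Id2, a transcription regulator of effector T cells, at 71.4%, 70.3% and 40.0% of positive cells against 38.2%, 38.3% and 33.4%, and the chemokine Ccl4, at 48.6%, 48.6% and 53.3% against 32.6%, 26.0% and 26.9%. The others were the adaptor genes Ywhaz and Ywhah, S100a11, Pkm, the G protein subunit gene Gnai2, and Rwdd1. Areg-positive CD8 T cells were deeper before thinning, with medians of 28287 UMIs against 14063 at day 3, 21442 against 12846 at day 7 and 27223 against 10898 at day 14. Their CD8 T marker RNA was lower, at 9158 CPM against 11219, 13609 against 16459 and 6989 against 14605. Their monocyte/macrophage marker RNA was at 1465 CPM against 1296 at day 3, 173 against 398 at day 7 and 2460 against 1016 at day 14, and its part in these shares was not tested.

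Monocytes and macrophages held Areg at 55.0 CPM at day 3 (51.4 to 58.7), 62.6 CPM at day 7 (58.1 to 67.4) and 83.5 CPM at day 14 (79.4 to 87.8), in 77 of 1395, 80 of 1001 and 111 of 1352 cells. Days 3 and 7 overlapped, day 14 lay above both, and it was 1.52-fold day 3 (1.40 to 1.65). That ratio only just passes 1.5-fold, and its interval reaches below it. The richest cells held 87 of 904, 87 of 718 and 207 of 1518 UMIs. By share of all Areg UMIs, this gate held 60.3%, 38.1% and 68.9%, Tregs 11.9%, 28.4% and 16.5%, and CD8 T cells 14.7%, 9.49% and 1.15%. In the NK gate 1, 10 and 2 cells held 1, 46 and 18 Areg UMIs, 15 of them in 1 cell at day 7 and 17 in 1 cell at day 14. Neutrophils, which served as a check on free RNA, held 0 of 66, 0 of 63 and 1 of 114 positive cells at median depths of 2212, 2467 and 2340 UMIs.

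Areg-positive monocytes and macrophages, read after the values were seen, more often held Hilpda, a lipid droplet gene induced by hypoxia (48.1%, 45.0% and 47.7%, against 23.8%, 28.6% and 33.7% of negative cells), and Spp1, which encodes osteopontin (26.0%, 23.8% and 46.8%, against 13.7%, 14.2% and 25.5%). Ptgs2, the prostaglandin synthase COX-2, was in 57.1%, 57.5% and 58.6%, against 49.3%, 39.8% and 39.9%. Lgals1, Ccl9, Bcl2a1b, Ccl2 and Nr4a1 made up the rest of the 8 with the largest mean difference. For Il10-positive cells of this gate, Lgmn, a lysosomal protease, was in 75%, 75% and 67.2%, against 32.4%, 42.5% and 51.1%, and Ccl7, a monocyte chemokine, in 56.8%, 47.2% and 61.2%, against 20.3%, 25% and 29.3%. C3ar1, the C3a receptor, was in 38.6%, 72.2% and 38.8%, against 15.4%, 24.2% and 22.3%. Ctsl, Mt1, Ccl2, Dab2 and Ccl9 completed these 8, so Ccl2 and Ccl9 were in both sets.

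The monocyte/macrophage gate was therefore divided, after its values were seen, into C1q-high cells (at least 10 UMIs of the complement C1q genes, a mark of macrophages), Ly6c2-positive cells (at least 3 UMIs of the inflammatory monocyte marker and fewer than 10 of C1q) and the rest. Il10 in C1q-high cells was at 22.7, 25.3 and 18.8 CPM at days 3, 7 and 14, against 2.28, 5.42 and 3.04 in Ly6c2-positive cells, which is 9.94-fold (6.05 to 17.2), 4.66-fold (3.01 to 7.35) and 6.18-fold (3.61 to 11.4) higher. Areg in C1q-high cells was at 78.8, 141.2 and 77.8 CPM, against 24.8, 43.4 and 15 CPM, or 3.17-fold, 3.25-fold and 5.19-fold higher. Both ligands thus lay higher in C1q-high than in Ly6c2-positive cells at every day, with intervals apart. Inside both subsets Areg was lower at day 14 than at day 7, by 1.81-fold in C1q-high and 2.90-fold in Ly6c2-positive cells, while the gate as a whole was higher. The 347, 292 and 552 cells outside both subsets went the other way, with 339, 99 and 914 Areg UMIs, or 95.1, 33.1 and 142.2 CPM, and 207 of the 914 lay in 1 cell. Their Il10 likewise was at 9.81, 3.01 and 16.7 CPM. For Areg, these remaining cells lay above C1q-high cells at days 3 and 14 and below them at day 7.

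**Figure D4:**
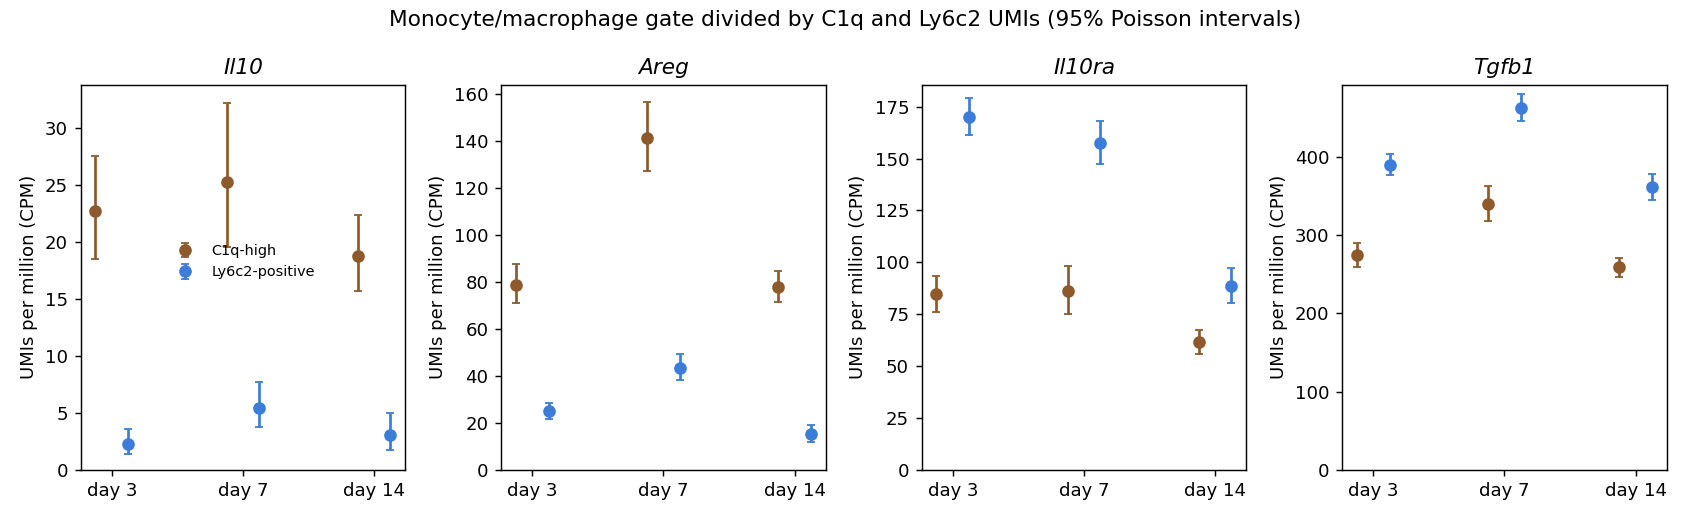
Level (vertical axes, CPM, from 0) of Il10, Areg, Il10ra and Tgfb1 in C1q-high and Ly6c2-positive cells of the monocyte/macrophage gate at days 3, 7 and 14, with 95% Poisson intervals. Between these subsets, Il10 and Areg lie higher in C1q-high cells on each day, and Il10ra and Tgfb1 lie higher in Ly6c2-positive cells. The rest of the gate is not shown.

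Il10ra, the ligand-binding IL-10 receptor chain, was highest in the monocyte/macrophage gate, at 139.5 CPM at day 3 (134 to 145), 139.3 CPM at day 7 (133 to 146) and 78.4 CPM at day 14 (74.4 to 82.6). It was found in 989 of 1395, 674 of 1001 and 756 of 1352 cells. Days 3 and 7 had overlapping intervals, and day 14 was 1.78-fold lower than day 7, at a ratio of 0.56 (0.52 to 0.60). Equal depth gave the same picture, with 20.1%, 21.0% and 12.3% of cells positive after thinning. C1q-high cells had 84.5, 85.9 and 61.3 CPM and Ly6c2-positive cells 170.2, 157.5 and 88.5. The Ly6c2-positive level at day 14 was 1.78-fold lower than at day 7 and the C1q-high level 1.40-fold lower, short of 1.5-fold. Between the subsets, the C1q-high level was 2.01-fold, 1.83-fold and 1.44-fold lower at days 3, 7 and 14. CD8 T cells held Il10ra at 43.0, 39.5 and 31.0 CPM, and the day 14 over day 7 ratio of 0.78 (0.66 to 0.92) did not reach 1.5-fold. The Treg gate had 73.6, 41.9 and 46.6 CPM, past the size rule and lower at day 7 and day 14 than at day 3, but from 63, 34 and 72 UMIs, and without second-lineage barcodes day 3 was the lowest, at 34.9 CPM from 5 UMIs. The monocyte/macrophage level was 3.25-fold, 3.52-fold and 2.54-fold that of the CD8 T gate. Among the T and NK gates no neighbours in the order of levels differed beyond counting error, though barcodes that neighbours share were counted in both. The ends of that order did differ at 2 of the days: with barcodes of both gates left out, the Treg level was 1.91-fold that of the CD8 T gate at day 3 (1.40 to 2.58), 1.12-fold at day 7 (0.74 to 1.63) and 1.57-fold at day 14 (1.18 to 2.06).

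Tgfb1, unlike the other ligands, was widespread. It was found in 91.2%, 91.1% and 88.1% of the monocyte/macrophage gate and in 75.6%, 75.4% and 68.1% of the CD8 T gate at days 3, 7 and 14. In the monocyte/macrophage gate its level was 348 CPM at day 3 (339 to 357), 403 CPM at day 7 (391 to 415) and 300.0 CPM at day 14 (292 to 308), in the NK gate 305, 302 and 239.7, and in the CD8 T gate 169, 175 and 146. Day 14 was the lowest in these gates, by less than 1.5-fold: the day 14 over day 7 ratios were 0.74 (0.72 to 0.78), 0.79 and 0.84 (0.78 to 0.90). The thinned shares of CD8 T cells with Tgfb1, 19.9%, 21.1% and 20.5%, had overlapping intervals. No cell held more than 38 of the 5716, 4617 and 5453 Tgfb1 UMIs of the monocyte/macrophage gate. The monocyte/macrophage gate exceeded the CD8 T gate by 2.06-fold, 2.30-fold and 2.06-fold, and NK cells exceeded it by 1.81-fold, 1.73-fold and 1.64-fold.

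Tgfbr2, the chain that binds TGF-beta first, was at 56.8 CPM at day 3 (52.0 to 61.8), 58.4 CPM at day 7 (53.5 to 63.5) and 40.6 CPM at day 14 (36.3 to 45.2) in the CD8 T gate. The day 14 interval lay below the other days, at a ratio of 0.70 to day 7 (0.60 to 0.80), short of 1.5-fold. Equal depth did not repeat this step: 14.9%, 10.4% and 10.0% of cells held Tgfbr2, with days 7 and 14 close together. NK and CD4 T cells were at 57.1, 69.2 and 53.8 CPM and at 54.8, 72.5 and 61.3 CPM. Monocytes and macrophages were lower, at 23.1, 29.2 and 32.0 CPM, and there day 14 was 1.39-fold day 3 (1.22 to 1.58). Tgfbr1, the signalling chain, gave 68, 62 and 54 UMIs in the CD8 T gate, 7.36, 6.79 and 6.66 CPM with overlapping intervals, and 19.0, 19.3 and 18.4 CPM in the monocyte/macrophage gate, also overlapping. Its level of 24.8 CPM in the CD4 T gate at day 14, 2.88-fold day 7, rested on 1 cell with 24 of 49 UMIs.

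Counted over members, 1 of 6 was past the size rule and higher at day 7 than day 3 in the CD8 T gate, where 6% of 11208 genes were past it and higher and 12% lower. Of the 6, 2 were lower at day 14 than at day 7 (3.99% of all genes lower, 5.87% higher) and 2 lower at day 14 than at day 3 (7.07% lower, 4.62% higher). In the Treg gate 2 were higher and 1 lower at day 7 over day 3 (6.42% and 10.9% of all genes), 1 lower at day 14 over day 7 (6.49% higher, 5.98% lower), and 1 higher and 1 lower at day 14 over day 3 (3.2% and 6.87%). The monocyte/macrophage gate had none at day 7 over day 3 (4.33% higher, 5.57% lower), 1 lower at day 14 over day 7 (7.01% higher, 5.58% lower), and 1 higher and 1 lower at day 14 over day 3 (7.02% and 7.34%). For CD4 T cells the counts were 2 higher (6.07% higher, 9.46% lower), 1 higher and 1 lower (5.56% and 4.54%), and 1 higher and 1 lower (3.71% and 6.46%) in the same comparisons. Among NK cells, where Il10 was too rare to measure, they were 1 higher (3.27% higher, 5.1% lower), 0 (3.5% higher, 5.48% lower) and 0 (3.98% higher, 8.15% lower). The members were chosen on these libraries, so nothing is read from the counts.

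**Figure D5:**
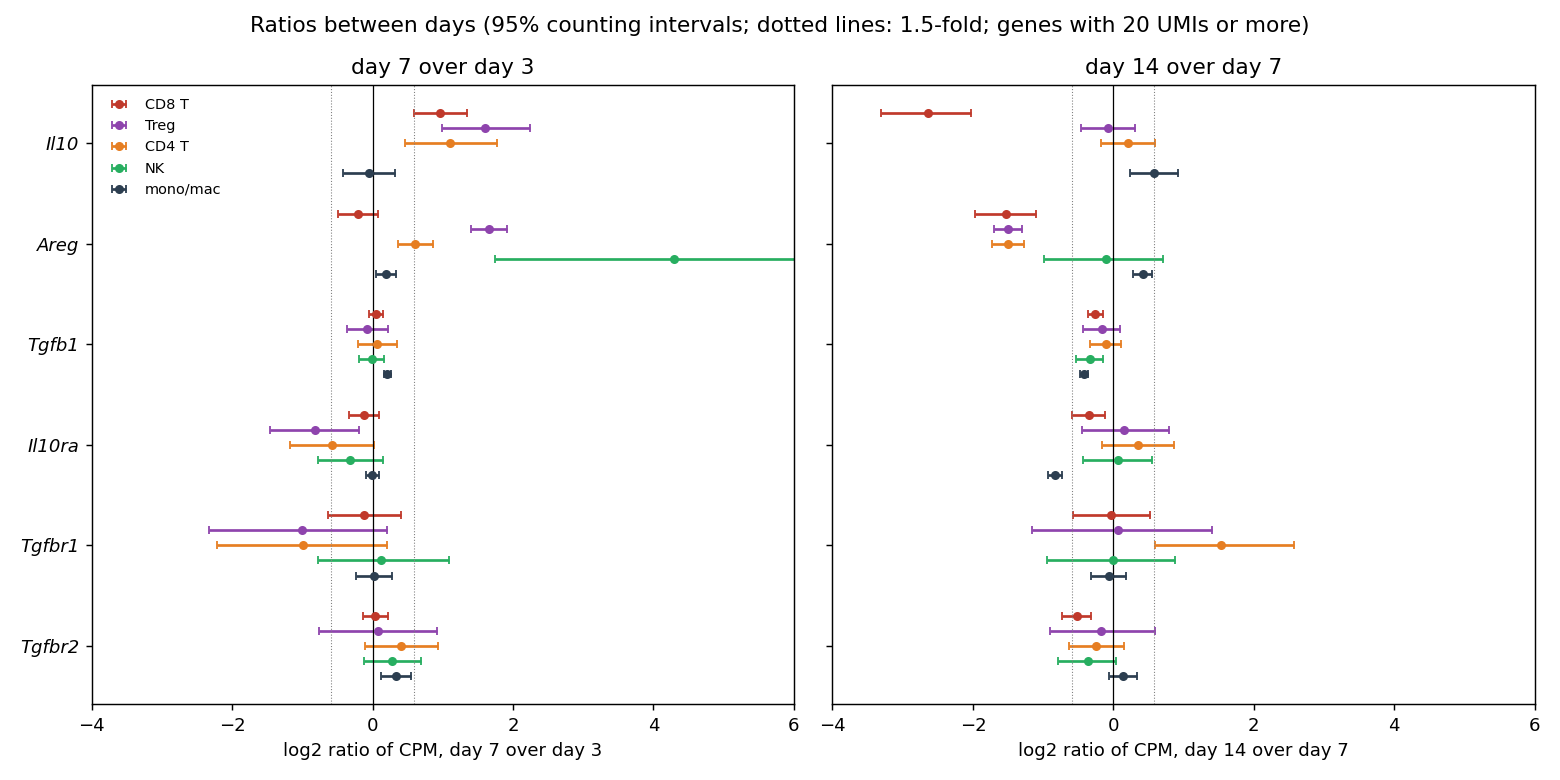
Log2 ratio of CPM (horizontal axes) for each gene and gate, day 7 over day 3 (left) and day 14 over day 7 (right), with 95% counting intervals; dotted lines mark 1.5-fold, and the interval of Areg in the NK gate at the left runs past the axis. At day 14 over day 7, Il10 lay at -2.64 in the CD8 T gate and at 0.57 in the monocyte/macrophage gate.

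Other genes of these pathways were counted from 8 lists chosen with earlier results known. Of 9 genes of the IL-10 receptor and its signalling, 2 were lower in monocytes and macrophages at day 14 than at day 7 and none higher, with a median log2 ratio of -0.35 against 0.02 over all genes. In that comparison 7.01% of all genes of this gate were past the size rule and higher, and 5.58% lower. Socs1, a feedback inhibitor of cytokine receptors, was at 30.6 CPM at day 14, against 99.9 at day 7. Of 12 IL-10 response genes of myeloid cells, 2 were higher, the mannose receptor Mrc1 (203 CPM at day 14, against 122 at day 7) and the scavenger receptor Cd163 (26 UMIs at day 14, against 3 at day 7, a ratio of 5.47 with an interval of 1.68 to 28.2), and 3 lower, among them Il1rn, the IL-1 receptor antagonist (192, against 342), and the nuclear cofactor Bcl3 (57.1, against 99.7). In the CD8 T gate the same comparison gave 1 lower of 9 receptor and signalling genes, Socs1 (48.6, against 74.4), and 2 higher and 1 lower of 15 transcription factors linked to Il10. Jun and Fos, subunits of AP-1, were higher (224, against 92.0, and 229.8, against 131.9), and Ikzf3 was lower (46.3, against 69.5). Monocyte/macrophage marker RNA in this gate was at 1099 CPM at day 14, against 377 at day 7, and its part in these levels was not tested. The median of those 15 was -0.04, against -0.01 over all genes, of which 5.87% were past the rule and higher and 3.99% lower.

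Among EGF family genes, the receptor gene Egfr, singled out after its values were seen, had 0 UMIs in the CD8 T and Treg gates on all 3 days and 1, 0 and 2 in the monocyte/macrophage gate. The ligand Nrg1, neuregulin, was at 32.7 CPM in monocytes and macrophages at day 14, against 64.2 at day 7. Hbegf, another EGFR ligand, was at 28.2 at day 14, against 43.8 at day 3. Of 14 genes listed only 7 were measured in that gate at day 14 over day 7, 2 higher and 1 lower, beside 7.01% and 5.58% of all genes. Their median was -0.27, against 0.02 over all genes. The 2 higher were Ereg, with 20 UMIs at day 14, 15 of them in 1 cell, against 0 at day 7, and Nrg4, with 36 UMIs against 10.

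For TGF-beta, Thbs1, thrombospondin 1, which can activate the latent complex, was at 1818 CPM in monocytes and macrophages at day 7, against 943 at day 3. Nrros, which anchors latent TGF-beta1 on myeloid cells, was at 137 at day 14, against 206 at day 7, and Tgfb3 at 4.13, against 0.70. Of 10 measured ligand and activation genes in this gate, 2 were higher and 1 lower at day 14 over day 7 (median -0.14), and of 15 receptor and SMAD genes 0 were past the rule in either direction (median -0.16), against a median of 0.02 over all genes. Of 14 TGF-beta response genes measured in this gate, 5 were higher and 2 lower at day 7 over day 3, beside 4.33% and 5.57% of all genes. Their median was 0.30, against 0.00 over all genes. The list holds genes that TGF-beta raises and genes that it lowers, so its counts and medians give no direction of response. Tgfbi, a matrix protein induced by TGF-beta, was at 927 CPM at day 7, against 452 at day 3, and Id1 at 47.5, against 22.3. Smad7, an inhibitory SMAD listed among receptors and SMADs as well, was at 45.3 at day 14, against 26.1 at day 3. At day 14 over day 7 the response genes were 2 higher and 3 lower, beside 7.01% and 5.58% of all genes, with Id3 at 23.5, against 66.6.

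The CD8 T gate had 4 of 13 measured TGF-beta response genes higher at day 14 than at day 7 and none lower, with a median of 0.49 against -0.01. As this list mixes genes that TGF-beta raises and lowers, neither the count nor the median gives a direction of response. Itgae, the CD103 integrin chain, was at 5.80 CPM at day 14, against 2.30 at day 7. This came from 47 UMIs in 16 cells and 21 UMIs in 7 cells, with 13 and 10 in the richest cell. Id3 was at 36.5, against 20.04, and Klf2, a transcription factor of T cell recirculation that TGF-beta is known to lower, at 224, against 113.9. Tgfbi, the other one, was at 42.6, against 17.1, and its level moved with the monocyte/macrophage markers of this gate, 1099 CPM against 377; their part in it was not tested. Over all genes of the CD8 T gate, 5.87% were higher and 3.99% lower in that comparison. Other suppressive mediators in monocytes and macrophages counted 3 higher and 4 lower of 21 at day 14 over day 7, beside 7.01% and 5.58% of all genes (median -0.22, against 0.02). Arg1, arginase 1, led this list at 1601 CPM, against 631. Fgl2, which encodes a fibrinogen-like suppressive protein, was at 170.1, against 287. At day 14 over day 3 the list was 2 higher and 10 lower of 21, beside 7.02% and 7.34% of all genes, with a median of -0.48 against 0.04, Il27 at 11.7 against 47.6 and Pdcd1lg2, the PD-1 ligand PD-L2, at 21.0 against 57.3.

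Over the 15 combinations of gate and day, the genes whose levels ranked most like Il10 among 10339 compared were Lxn (Spearman rho 0.95), Lamc1 (0.94), Cyb5a, Tent5a and Snx9 (0.92 each). Snx9 also ranked most like Areg (0.96), ahead of Ebi3 (0.94), Mmp9, Cep85l and Kdelr1 (0.93 each). Nearest to Tgfb1 were D1Ertd622e and Ccr2 (0.97 each), Rhoa, Anxa1 and Metrnl (0.95 each). The points share 3 libraries and overlapping gates, so these correlations are a description.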

How the data were processed

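CD45+ cells from B16F10 tumours were measured with a 10x Genomics 3' kit, 1 library of 3 pooled mice per day, per the labels' protocols. The labels name a cell sorter in one field and magnetic beads in another. The authors deposited a matrix of whole-number UMI counts for each library. Their notes on processing, as the submitters gave them, name Cell Ranger 4.0.0 and the mm10 build. Which annotation release was used, and whether doublets had been removed, is not given in the sources used here. No doublet caller was run; a filter on second-lineage markers was an alternative.

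The 6 genes, the gates, the 8 lists and the naming rule (up to 4 genes per list and comparison past the size rule in the CD8 T and monocyte/macrophage gates, the 8 most co-detected genes and the 5 most alike) were chosen with earlier results of these data known. The CD8 T gate needs at least 2 UMIs of Cd8a and Cd8b1 and 1 of Cd3e and Cd3d. The Treg gate needs 1 of Foxp3, and the CD4 T gate 1 of Cd4 and 1 of Cd3e and Cd3d. The NK gate needs 2 of Ncr1 and Klrb1c with 0 of Cd3d and Cd3e, and the monocyte/macrophage gate 1 of Csf1r and Adgre1 with 0 of Cd3e.

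UMIs were summed per gate and library. Sums have exact Poisson, ratios exact conditional and shares exact binomial intervals at 95%; a share of 0 is given the limit of 3 cells instead. With 1 library per day there was no test. Thinning drew 1500 UMIs from each cell. Gene coordinates come from GENCODE M21 on the same build. Analyses used Python 3.11.15, numpy 2.4.6, scipy 1.17.1 and edgeR 4.0.16 (TMM scaling of the counts only), and interval code was tested on simulated data. Alternatives were other UMI minimums (1000, 3000), 1 gate per barcode, filters on second-lineage markers, mitochondrial share (10%) and shared barcodes, no top cell, other scalings, per-cell means and thinned shares. Leaving out only the shallower copy of a shared barcode, and CD8 T barcodes with Foxp3 or Cd4, were added after seeing the data. Values of some listed genes are not reported here.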

Additional observations from a re-analysis of the deposited data

Results flagged for a closer look

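The ratio between days differed in direction between gates, with intervals on opposite sides of no change. None of these differences was tested, since there is 1 library per day, and they are given as log2 differences. For Il10 at day 14 over day 7, the CD8 T gate stood at -2.64 and the monocyte/macrophage gate at 0.57, a difference of -3.21. At day 14 over day 3 Il10 was at -1.68 in the CD8 T gate, which is -3.19 from the Treg gate (1.52), -2.98 from the CD4 T gate (1.30) and -2.20 from the monocyte/macrophage gate (0.53). The CD4 T and Treg gates share most of their Il10 barcodes, so they are not separate cases, and the CD8 T value turned positive without second-lineage barcodes.

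For Areg at day 14 over day 7, the monocyte/macrophage gate was at 0.42, and the CD8 T gate (-1.53), the Treg gate (-1.50) and the CD4 T gate (-1.50) differed from it by -1.94, -1.91 and -1.91. At day 14 over day 3 the monocyte/macrophage gate was at 0.60, the CD8 T gate -2.34 from it and the CD4 T gate -1.49.

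Areg RNA also lay in barcodes of none of the 5 gates, in 16, 26 and 21 cells on days 3, 7 and 14, which held 160, 329 and 225 of its UMIs.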

How the results depend on the processing

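The 69 ratios of a gene between 2 days were recomputed under the alternatives, which gave 840 values. Of these, 717 stayed within the main interval, 111 lay outside it, and 12 reversed a ratio past the rule of size. Of the 21 ratios past the rule of size, 13 kept their direction in every alternative run. The other UMI minimums, TMM scaling, the mitochondrial filter and leaving out shallower copies left all values within their intervals. The values below are log2 ratios, and unless stated otherwise the cause was not tested.

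For Il10 in the CD8 T gate at day 14 over day 7 (-2.64), leaving out second-lineage barcodes gave -1.55, weighing every cell alike -1.89 and thinned shares -1.41. At day 14 over day 3 the second-lineage filter turned the ratio to 0.73. Areg in the CD8 T gate at day 14 over day 7 (-1.53) was -2.65 with 1 gate per barcode, -2.43 without second-lineage barcodes, -1.02 without barcodes found in 2 libraries, -2.54 without Foxp3 and Cd4 and -2.40 without the top cells. In the same comparison thinned shares gave -0.66 for Il10ra (-0.35), -0.039 for Tgfb1 (-0.26), -0.057 for Tgfbr2 (-0.52) and, from few cells, 3.34 for Tgfbr1 (-0.028). Tgfbr2 was -0.22 and Tgfbr1 0.62 without second-lineage barcodes, and Tgfbr2 -0.087 with every cell alike.

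In the monocyte/macrophage gate at day 14 over day 3, Il10 (0.53) was 0.89 without shared barcodes, 0.88 with every cell alike and -0.054 by thinned share. Areg (0.60) was 0.77 with every cell alike and 0.33 by thinned share, and Tgfb1 (-0.21) was -0.15 outside mitochondrial and ribosomal genes and -0.11 by thinned share. In the Treg gate Il10 by thinned share was -0.082 at day 7 and -0.24 at day 14, over day 3, and Il10ra without second-lineage barcodes 0.99 and 0.15. In the CD4 T gate over day 3, Il10 was -0.49 at day 7 and -2.04 at day 14 with 1 gate per barcode, since the Foxp3-positive barcodes leave, and -0.39 and -0.51 by thinned share, while Areg at day 7 was -0.45 with 1 gate per barcode, -0.12 with every cell alike and -0.33 by thinned share. List genes past the rule of size in the CD8 T gate at day 7 over day 3 numbered 24 of 88 measured, and 7 of 75 without second-lineage barcodes, where the share of all genes past it was 18% and 11.6%.

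No paired analysis was possible because each day is 1 library with no replicate numbers, and there was no replicate to leave out. List counts were not run under per-cell means, without top cells or on thinned shares. Depth limits the rare genes most: thinned shares of Il10 in the CD8 T gate rest on 4, 9 and 3 cells.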

Other observations

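Areg-positive barcodes outside the 5 gates were of more than 1 kind. Those with a Cd3d or Cd3e UMI held 91, 182 and 86 Areg UMIs at days 3, 7 and 14, in 8, 14 and 9 cells, and those without held 69, 147 and 139, in 8, 12 and 12 cells, with up to 93 UMIs in a single cell at day 7. Other marker gates, which may overlap the 5, held few Areg UMIs but were small, so these counts are not levels. Conventional dendritic cells had 39, 15 and 21 Areg UMIs in 2, 7 and 5 of 90, 62 and 81 cells. Migratory dendritic cells had 38, 1 and 17 in 3, 1 and 1 of 38, 19 and 44 cells. Il10 was found in 0 of 66, 0 of 63 and 0 of 114 neutrophils.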
